A study of Mus musculus with 6 samples.

Results

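Glycolysis splits glucose into pyruvate in the cytosol, and the pyruvate is either reduced to lactate or burned in mitochondria. Resting naive CD4 T cells take up little glucose and meet most of their energy need by respiration, and they raise glucose uptake and glycolytic enzymes when their antigen receptor is engaged. CMTR1 adds a methyl group to the cap-adjacent nucleotide of an mRNA, on its ribose. Glucose transport and glycolysis are described here through 10 genes taken by name, of the 46983 genes in the deposited tables. They are the glucose transporters Slc2a1 (GLUT1) and Slc2a3 (GLUT3) and the enzymes Aldoa, Tpi1, Gapdh, Pgk1, Pgam1, Eno1, Pkm and Ldha.

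The sequenced cells were naive CD4 T cells of male mice, sorted from lymph nodes as live TCRb+ CD4+ CD62L+ CD44- cells, and ribosomal RNA was removed from their RNA. All mice carried floxed Cmtr1 alleles (Cmtr1 fl/fl). The 2 control libraries came from mice without the CD4cre transgene, and the 4 Cmtr1 cKO libraries came from mice with it. CD4-Cre recombines floxed alleles from the double-positive stage of thymocytes on, in the CD4 and the CD8 branch, and the recombination itself was not measured here. The labels give no age and do not say whether each library came from a separate mouse, so the p-values measure only the spread between these libraries.

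The libraries held 9513874 to 11949838 reads counted in genes. Between 34.0% and 37.2% of uniquely mapped reads lay outside exons in the controls, and 38.0% to 52.3% did so in the cKO libraries. The cKO libraries are numbered as in the labels, and cKO 4 had the share closest to the controls. Library cKO 3 stood apart in strand, with 5.57 reads on the strand of genes per read on the opposite strand, beside 18.7 to 22.7 in the other 5. Cmtr1 itself gave 11.2 and 11.4 CPM (reads of a gene scaled to a common library total) in the control libraries, and cKO 1 to 4 gave 16.0, 19.8, 14.6 and 7.57 CPM. These groups overlapped, and a count over the whole gene does not check the labels, because a floxed exon is only part of it. Of 12 naive CD4 T cell markers, 1 (Ccr7) fell and none rose, with summed levels of 7574 to 7578 CPM in controls and 6937 to 7960 CPM in cKO. Summed markers of CD8 T and NK cells were 79.7 to 94.3 CPM in controls and 36.5 to 42.4 CPM in cKO, and 3 of the 7 tested fell. Summed activated T cell markers were 303 to 307 and 310 to 365 CPM, where Mki67 rose and Cd44 fell among 8 tested. B cell markers gave 378 to 394 and 292 to 336 CPM, and 1 of 9 fell, Ighm, which made up most of the sum (340 and 344 CPM in controls, 260 to 282 CPM in cKO). Neutrophil and myeloid markers gave 4.27 to 17.7 and 2.92 to 4.55 CPM with Mpo at 0, and dendritic markers 1.36 to 2.71 and 0.846 to 2.13 CPM. Erythroid and platelet markers gave 2.01 to 3.88 and 0.741 to 2.87 CPM with Pf4 and Gp9 at 0. Stromal and endothelial markers gave 309 to 320 and 320 to 340 CPM with Pdpn and Ccl19 at 0, and nearly all of it was Pecam1 (308 and 319 CPM in controls, 319 to 340 CPM in cKO), the only one of the 8 that was tested. The part of other cell types in the differences below was not tested.

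All 10 genes passed the filter on low counts. In the Cmtr1 cKO libraries 3 of the 10 genes fell (Slc2a1, Slc2a3 and Aldoa) and 0 rose, at an adjusted p under 0.05 in edgeR's quasi-likelihood test. Across the 12748 genes tested, 6.77% were called lower, 4.66% higher and 11.4% either way. In this fit no gene of the 10 was higher at an unadjusted p under 0.05 either, and DESeq2 and limma voom called 0 higher, while a covariate fit given below called 2 higher. In 6 of the 10 genes every cKO library lay below both controls, which held for 20.8% of all genes tested. In none did every cKO library lie above both controls, which held for 18.2%. The median log2 fold change of the 10 genes was -0.25, beside -0.00047 for all genes tested, and -0.06 in that covariate fit. Each of the 3 calls was lost without control 1 or without control 2, as were most calls among all genes. The median log2 fold change of the 10 genes in these fits was -0.17 and -0.27.

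**Figure D1:**
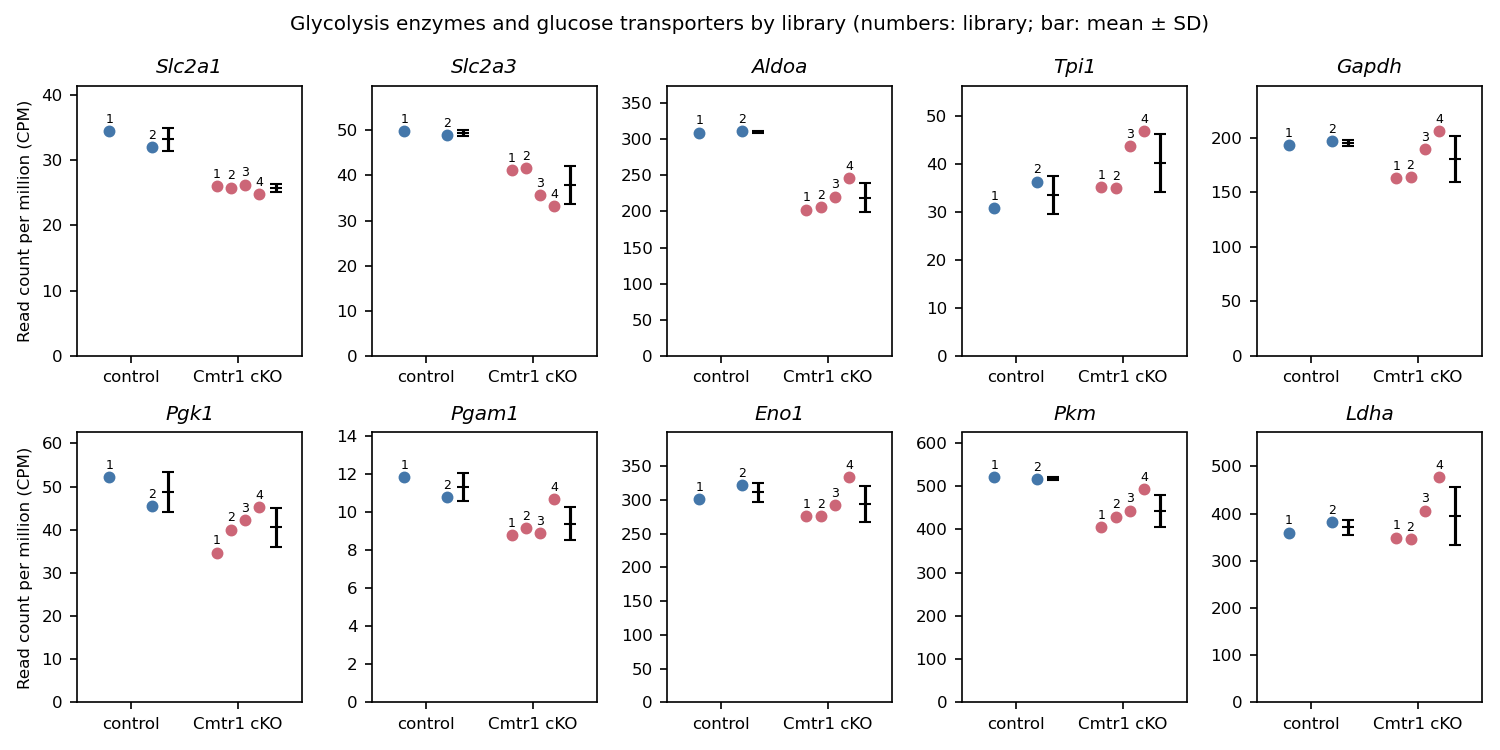
CPM (y axes) of the 10 genes in each library (numbered points) by genotype, with bars at the group mean ± SD. All 4 cKO libraries lie below both controls for Slc2a1, Slc2a3, Aldoa, Pkm, Pgk1 and Pgam1, while Tpi1, Gapdh, Eno1 and Ldha overlap between the groups.

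The summed level of the 2 transporters was 84.3 and 80.9 CPM in controls and 67.1, 67.3, 61.8 and 57.9 CPM in cKO 1 to 4, a log2 ratio of the means of -0.38. The summed level of the 8 enzymes was 1778 and 1820 CPM in controls and 1475, 1506, 1646 and 1858 CPM in cKO 1 to 4, a log2 ratio of -0.15. The transporters did not overlap between genotypes and were lowest in cKO 4, whereas the enzyme sum was highest in cKO 4, above both controls. The difference between these sums was not tested, and the log2 fold changes of single enzymes, given below, lay on both sides of those of the transporters. In bulk RNA, fewer cells of a type and less RNA per cell cannot be told apart.

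Slc2a1 (ENSMUSG00000028645, chr4:119108711-119137983, plus strand, GRCm38) encodes GLUT1, the main inducible glucose importer of T cells. Its level was 34.4 and 32.0 CPM in controls and 26.0, 25.8, 26.2 and 24.8 CPM in cKO 1 to 4. The cKO libraries lay close together and all below the controls. The log2 fold change was -0.37 ± 0.09 (SE; 95% interval -0.57 to -0.17; edgeR adjusted p = 0.0259), a level that fell by 22.7%. This call was lost with DESeq2 (adjusted p = 0.0525) and in 5 of the 6 fits that left out 1 library, the fit without cKO 3 among them.

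Slc2a3 (ENSMUSG00000003153, chr6:122727809-122801640, minus strand) encodes GLUT3, a high-affinity importer. Its level was 49.8 and 48.9 CPM in controls and 41.1, 41.5, 35.5 and 33.1 CPM in cKO 1 to 4. The groups did not overlap, and cKO 3 and 4 were lower than cKO 1 and 2. The log2 fold change was -0.38 ± 0.10 (95% interval -0.61 to -0.16; edgeR adjusted p = 0.0350), a level that fell by 23.4%. The call was lost without control 1, without control 2 and without cKO 3.

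Aldoa (ENSMUSG00000030695, chr7:126795234-126800751, minus strand) encodes aldolase A, which splits fructose 1,6-bisphosphate into a pair of triose phosphates. Its level was 309 and 311 CPM in controls and 203, 206, 221 and 246 CPM in cKO 1 to 4. The controls were almost equal and every cKO library was well below them. The log2 fold change was -0.50 ± 0.08 (95% interval -0.69 to -0.32; edgeR adjusted p = 0.0046), a level that fell by 29.5%, the largest of the 10 in this fit but not with the covariate given below. Without control 1 or control 2 the edgeR adjusted p was 0.0685 and 0.0843, and over all fits that left out 1 library the log2 fold change was between -0.57 and -0.47.

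Aldoa and Slc2a1 are shown next by the letters around their transcription starts, because CMTR1 modifies that first nucleotide. RefSeq promoters on GRCm38.p6 list 3 starts for Aldoa (chr7, minus strand, windows 126800438-126800467, 126799245-126799274 and 126799169-126799198) and 1 for Slc2a1 (chr4:119108725-119108754, plus strand). For comparison, genes that did not pass the test are added. Their windows are start 1 of 2 for Ldha (chr7:46845784-46845813, plus strand), the start of Tpi1 (chr6:124814149-124814178, minus strand) and that of Gapdh (chr6:125165764-125165793, minus strand). Each runs from 20 bases before the start to 10 bases from the start on, with the first transcribed base in a capital.
Aldoa start 1: aaaaaaaaagtacaaccaccAgcaggcacc
Aldoa start 2: cttcaattggacggttcccgTccctgcaag
Aldoa start 3: ccccgcctcccgtcccccccAacccagctg
Slc2a1: ccgcccccttcgggcccaccTacaccccag
Ldha: tcccactctgacgtcagcgcGgagcttcca
Tpi1: gccagtggagagagccgtgcGtttgtactg
Gapdh: gggtccaaagagagggaggaGgggaaatga
The table held starts for 9 of the 10 genes, with Slc2a3 the exception. Of their 15 starts, 5 began with A, 8 with G, 2 with T and 0 with C. Among all 32851 promoters, 34.4% began with A, 35.6% with G, 13.7% with T and 16.3% with C. The A starts lay in Aldoa and also in Eno1 and Pkm, which did not pass the test. The T starts lay in Aldoa and Slc2a1. A start with C followed by 4 bases C or T, the core of the terminal oligopyrimidine motif of ribosomal protein mRNAs, was found in 0 of the 9 genes and in 3.01% of all 27025 genes in the table. The annotated starts were not mapped in these cells.

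The enzymes of the middle of the pathway fell into genes with small negative values and genes that did not move beyond their spread. Tpi1 (ENSMUSG00000023456, chr6:124810586-124814296, minus strand) encodes triose phosphate isomerase, which interconverts the trioses that aldolase releases. Its level was 30.7 and 36.2 CPM in controls and 35.1, 34.9, 43.7 and 46.8 CPM in cKO 1 to 4. Only cKO 3 and 4 exceeded both controls, and the log2 fold change was 0.26 ± 0.13 (95% interval -0.03 to 0.56; edgeR adjusted p = 0.204).

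Gapdh (ENSMUSG00000057666, chr6:125161715-125166467, minus strand) encodes the dehydrogenase that yields the NADH of glycolysis. It was at 193 and 197 CPM in controls and 163, 164, 189 and 206 CPM in cKO 1 to 4. The groups overlapped through cKO 4, and the log2 fold change was -0.11 ± 0.10 (95% interval -0.32 to 0.10; edgeR adjusted p = 0.465). Pgk1 (ENSMUSG00000062070, chrX:106187100-106203699, plus strand) encodes the kinase of the first ATP-yielding step. It was at 52.1 and 45.5 CPM in controls and 34.7, 40.0, 42.2 and 45.2 CPM in cKO 1 to 4. All cKO libraries were lower, but cKO 4 lay just under control 2, and the log2 fold change was -0.27 ± 0.11 (95% interval -0.50 to -0.03; edgeR adjusted p = 0.122).

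Pgam1 (ENSMUSG00000011752, chr19:41911923-41918660, plus strand) encodes the mutase that moves the phosphate to prepare for enolase. It was at 11.8 and 10.8 CPM in controls and 8.79, 9.16, 8.89 and 10.7 CPM in cKO 1 to 4. Here too cKO 4 lay just under control 2, and the log2 fold change was -0.27 ± 0.15 (95% interval -0.59 to 0.06; edgeR adjusted p = 0.246). Eno1 (ENSMUSG00000063524, chr4:150236721-150248879, plus strand) encodes enolase, which forms phosphoenolpyruvate. It was at 301 and 322 CPM in controls and 276, 276, 292 and 333 CPM in cKO 1 to 4. Its groups overlapped, and the log2 fold change was -0.08 ± 0.09 (95% interval -0.27 to 0.11; edgeR adjusted p = 0.560).

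Pkm (ENSMUSG00000032294, chr9:59656368-59679375, plus strand) encodes muscle pyruvate kinase, whose M1 and M2 splice forms share one gene count and cannot be told apart here. It was at 520 and 515 CPM in controls and 405, 429, 443 and 492 CPM in cKO 1 to 4. Every cKO library was below both controls, with a log2 fold change of -0.23 ± 0.09 (95% interval -0.41 to -0.04) that missed the threshold (edgeR adjusted p = 0.103). Ldha (ENSMUSG00000063229, chr7:46841475-46855627, plus strand) encodes the lactate dehydrogenase subunit that favours making lactate. It was at 360 and 382 CPM in controls and 349, 346, 406 and 477 CPM in cKO 1 to 4. Its cKO libraries lay on both sides of the controls, with a log2 fold change of 0.09 ± 0.12 (95% interval -0.17 to 0.35; edgeR adjusted p = 0.644). Ldha made up 93.9% to 95.4% of the summed CPM of Ldha and Ldhb, the other main subunit, in the 6 libraries.

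**Figure D2:**
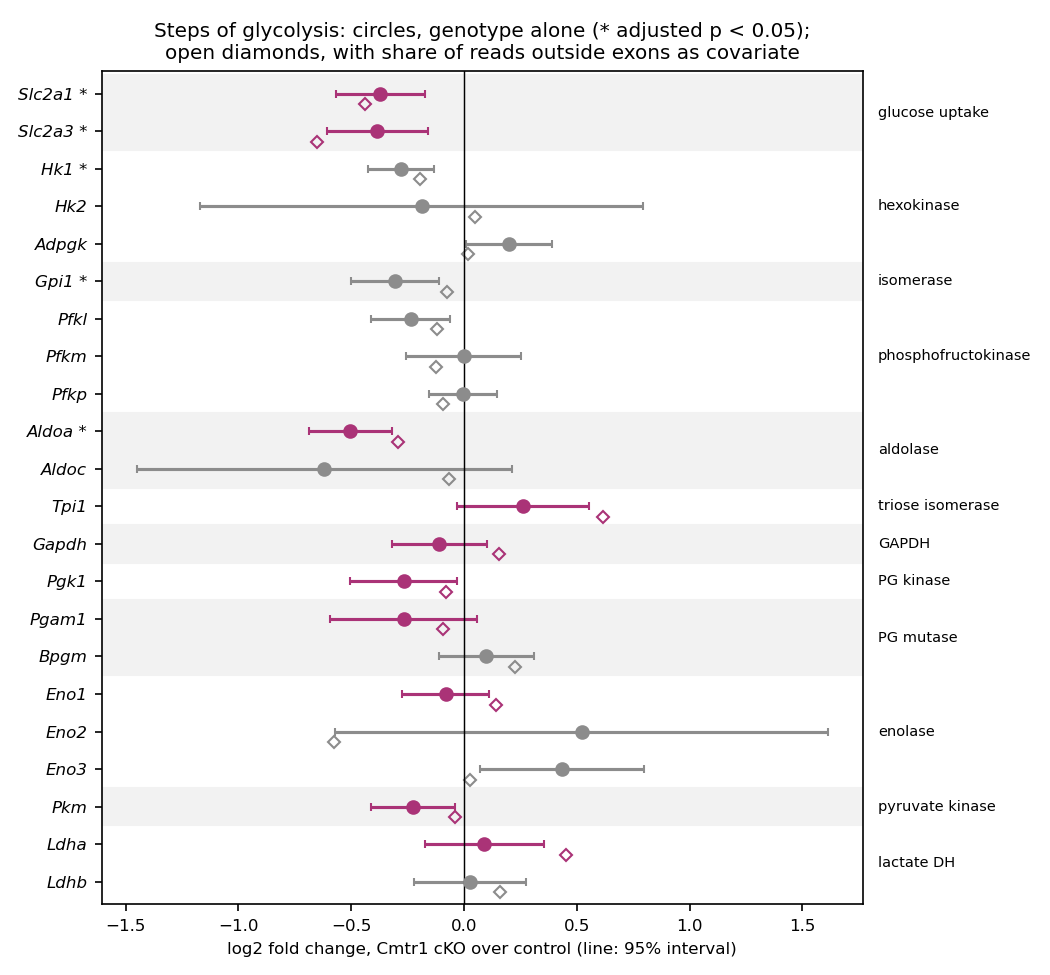
Log2 fold change, cKO over control (x axis), of the 10 genes (coloured) and the tested isoenzymes and other enzymes (grey), by step from glucose uptake at the top to lactate dehydrogenase at the bottom; circles with 95% intervals are the genotype fit, stars mark an adjusted p under 0.05 and open diamonds are the covariate fit (share outside exons). Among the 10 genes, Slc2a1, Slc2a3 and Aldoa lie between -0.50 and -0.37 and the other 7 run from -0.27 to 0.26, and the diamonds of Ldha and Tpi1 stand at 0.45 and 0.62.

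The order of the levels can be read only per length. In CPM per kilobase of exon, the control means were 112 for Ldha, 107 for Aldoa and 103 for Pkm. Next came Eno1 at 57.9 and Gapdh at 47.2 CPM per kilobase, then Pgk1 at 21.7 and Tpi1 at 12.2. Slc2a1 at 9.47, Slc2a3 at 6.82 and Pgam1 at 5.70 CPM per kilobase were lowest. Ranges over the 6 libraries overlapped between neighbours for Ldha and Aldoa, Aldoa and Pkm, Pgk1 and Tpi1, and Slc2a3 and Pgam1, and not for the others. In the cKO means Pkm (88.5) stood above Aldoa (75.2), the reverse of the controls, and Ldha stayed first (119 CPM per kilobase). With the length of the principal transcript in place of all exons, Pkm came first in the controls and Slc2a3 stood above Slc2a1. Neither length was corrected for stretches shared with other genes, given below. These make up 36.2% of the 50-base stretches of Pgam1 and 1.26% of those of Slc2a3, so the last place of Pgam1 is uncertain.

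The share of reads outside exons moved with the levels of the enzymes and of Slc2a3. In cKO 4, whose share of 38.0% was near the controls, the log2 level relative to the control mean was -0.58 for Slc2a3, -0.42 for Slc2a1 and -0.33 for Aldoa. In the same library it was 0.48 for Tpi1, 0.36 for Ldha, 0.10 for Eno1 and 0.08 for Gapdh. In cKO 1, whose share was 52.3%, the log2 level was -0.61 for Aldoa, -0.27 for Slc2a3, -0.09 for Ldha and 0.07 for Tpi1. All 8 enzymes were higher in cKO 4 than in cKO 1, while Slc2a3 was lower. Slc2a1 differed little between them, at 24.8 CPM in cKO 4 and 26.0 CPM in cKO 1.

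With the share outside exons as a covariate in edgeR, Slc2a3 (log2 fold change -0.65, adjusted p = 0.000803), Slc2a1 (-0.44, adjusted p = 0.0499) and Aldoa (-0.29, adjusted p = 0.0103) were still called lower. Among all genes this fit called 2.71% lower and 2.51% higher. Ldha (0.45, edgeR adjusted p = 7.58e-05) and Tpi1 (0.62, edgeR adjusted p = 0.00244) were called higher in it, and the values of Gapdh (0.16) and Eno1 (0.14) changed sign without being called. The same 3 genes were called lower in both fits, and the values of Tpi1, Ldha, Gapdh and Eno1 moved up with the covariate. The share did not overlap between genotypes (controls up to 37.2%, cKO from 38.0%), so the covariate fit cannot fully separate it from genotype. It leans on cKO 4, the cKO library nearest the controls in share. Without cKO 4, the fit on genotype alone gave a log2 fold change of -0.014 for Ldha.

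**Figure D3:**
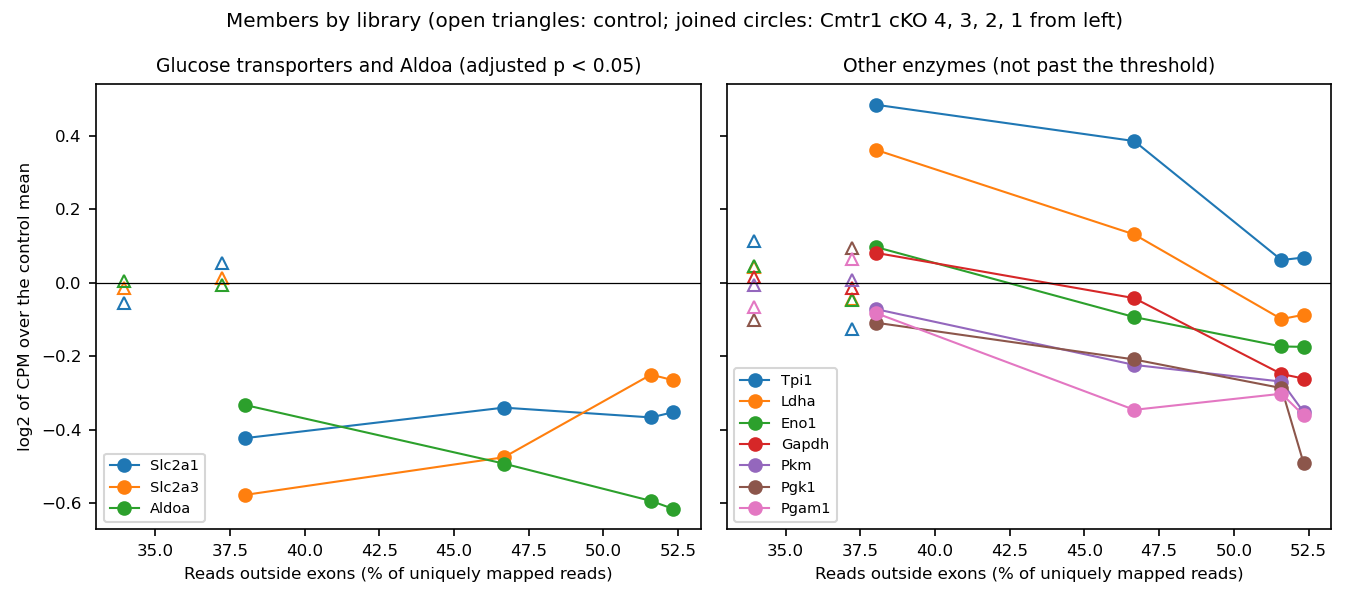
Log2 level of each gene relative to the control mean (y axis) against the share of uniquely mapped reads outside exons in each library (x axis, percent), with controls as open triangles and cKO libraries as joined circles, for the 3 genes past the test (left) and the other 7 (right). Among the cKO libraries all 8 enzymes are highest at 38.0%, in cKO 4, and Slc2a1 and Slc2a3 are lowest there.

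Many glycolytic genes have processed pseudogenes, and a read that maps to several places is counted for no gene. The share of 50-base stretches that also occur in transcripts of another annotated gene was 53.9% for Pgk1, 36.2% for Pgam1, 26.0% for Eno1, 25.8% for Pkm and 25.1% for Gapdh. It was 9.26% for Ldha, 5.13% for Aldoa, 4.18% for Tpi1, 1.54% for Slc2a1 and 1.26% for Slc2a3. The 3 genes that passed the test were thus among those with few shared letters. The counts of Pgk1, Pgam1, Eno1, Pkm and Gapdh are less certain, by an amount that this share does not measure. It also includes genes that overlap at the same place. For Pkm, 15.3% of exon bases were shared with another gene on the same strand. Gapdh shared stretches with 223 other genes, of which 196 were pseudogenes. Summing each gene with its pseudogenes left the same 3 calls, and the log2 fold change of Eno1 became 0.04 (edgeR adjusted p = 0.779). The pseudogenes of Eno1 held 6 and 4 reads in controls and 301, 308, 270 and 228 reads in cKO 1 to 4, most of them in Gm33707.

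A single Eno1 pseudogene behaved unlike Eno1 itself. Gm33707 (chr3:60769887-60770455, minus strand, a processed pseudogene of 569 bases) had 0 reads in both controls and 299, 302, 263 and 227 reads in cKO 1 to 4. It was the only 1 of 46983 genes with 0 reads in both controls and over 3 CPM in every cKO library, and was singled out after its values were seen. A floor of 3 counts per control library makes its mean cKO level at least 87.9-fold higher, a description without a test since these values chose it. Eno1 had 2760 to 3874 reads in the same libraries, and no read was counted on the strand opposite to Gm33707.

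The difference in letters between both genes bears on whether a read can be placed. Over 576 aligned columns the Gm33707 transcript and Eno1-202 were identical at 514 (89.2%), and only 27 of the 50-base stretches of Eno1 occur in it. Of the ungapped stretches of 60 coding bases, the one with the most differences is printed, with its 11 differing letters in capitals. It covers Eno1-202 bases 1398 to 1457, beside Gm33707-201 bases 264 to 323 (GENCODE vM21).
Eno1: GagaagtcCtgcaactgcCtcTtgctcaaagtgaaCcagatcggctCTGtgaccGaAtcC
Gm33707: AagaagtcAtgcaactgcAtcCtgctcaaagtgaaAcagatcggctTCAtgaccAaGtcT
Within 150 kb of Gm33707 the only other gene with over 4 reads in a library was Mbnl1, 140 kb away, at 16559 and 17831 reads in controls and 18806 to 20980 in cKO. The source of the Gm33707 reads was not tested.

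**Figure D4:**
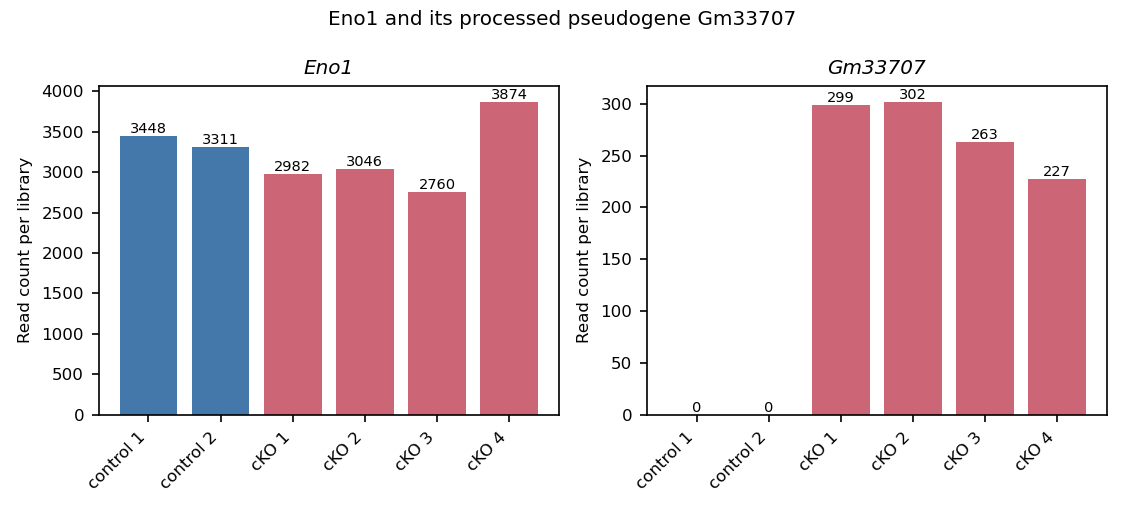
Read counts per library (y axes) for Eno1 and for its pseudogene Gm33707. Gm33707 is at 0 in both controls and at 227 to 302 in the 4 cKO libraries, while Eno1 spans 2760 to 3874 with the groups overlapping.

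The HIF transcription factors, which raise glycolytic genes at low oxygen, bind a core of ACGTG or GCGTG, and MYC, which raises them on T cell activation, binds the E-box CACGTG. Within 250 bases before to 50 bases after a start, on either strand, the HIF core was found in 8 of the 9 genes with a promoter (all but Tpi1) and in 46.7% of all genes in the table. The E-box, which contains the HIF core, was found in Ldha alone of the 9 and in 8.09% of all genes. In Ldha it lay at start 1, with 0 matches at start 2. Slc2a1 is shown as a gene that fell and Ldha as a gene that did not pass the test. The 250 bases before the start of Slc2a1 (chr4:119108495-119108744, plus strand) and before start 1 of Ldha (chr7:46845554-46845803, plus strand) are printed, with the matches on either strand in capitals (RefSeq, GRCm38.p6).
Slc2a1: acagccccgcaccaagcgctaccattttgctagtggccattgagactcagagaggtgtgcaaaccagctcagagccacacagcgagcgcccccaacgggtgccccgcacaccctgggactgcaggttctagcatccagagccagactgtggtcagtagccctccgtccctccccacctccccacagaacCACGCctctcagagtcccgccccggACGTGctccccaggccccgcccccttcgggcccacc
Ldha: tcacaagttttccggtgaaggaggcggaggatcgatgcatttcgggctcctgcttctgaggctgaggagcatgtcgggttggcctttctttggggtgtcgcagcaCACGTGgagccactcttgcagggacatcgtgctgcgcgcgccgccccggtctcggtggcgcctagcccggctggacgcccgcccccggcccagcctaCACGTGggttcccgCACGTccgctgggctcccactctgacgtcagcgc
Both windows hold the core, that of the gene that fell and that of the gene that did not pass the test. A match of letters is not a measured site.

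The remaining enzymes and transporters of the pathway were compared as lists chosen by role. Of the other glycolytic isoenzymes, 12 of 20 were tested, 2 fell and 0 rose, beside 6.77% lower and 4.66% higher among all genes, with a median log2 fold change of -0.0023. At an unadjusted p under 0.05 edgeR put 2 of them higher, DESeq2 called 0 higher, and voom called 2 higher (Adpgk and Eno3). Hk1, the hexokinase that traps glucose in the cell, was at 170 and 172 CPM in controls and 134 to 147 CPM in cKO, with a log2 fold change of -0.28 (edgeR adjusted p = 0.0238). Gpi1, the isomerase of the next step, was at 293 and 294 CPM in controls and 214 to 270 CPM in cKO, with a log2 fold change of -0.31 (edgeR adjusted p = 0.0478). In both, every cKO library lay below the controls, and neither was called with the share outside exons as covariate or in any of the 5 fits that left out a library other than cKO 4. Of the other hexose and lactate transporters, 5 of 12 were tested and 0 were called by edgeR, with 1 lower at an unadjusted p under 0.05, 0 with DESeq2 and 1 with voom.

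Among 23 regulators of glycolysis, 22 were tested, 5 fell and 0 rose, beside the same 6.77% and 4.66%, with a median log2 fold change of -0.17, and the count of 0 rising genes was also 0 at an unadjusted p under 0.05, with DESeq2 and with voom. Epas1 (HIF2A) was at 18.2 and 23.2 CPM in controls and 7.04, 9.52, 10.1 and 9.38 CPM in cKO 1 to 4, with groups far apart, a log2 fold change of -1.20 (edgeR adjusted p = 0.00123) and -0.97 with the covariate, still called. Txnip, which curbs glucose uptake through GLUT1, was at 568 and 582 CPM in controls and 401 to 476 CPM in cKO, with a log2 fold change of -0.39 (edgeR adjusted p = 0.0161). Every cKO library of Txnip lay below both controls, as for Slc2a1. Prkaa1, a catalytic subunit of AMPK, had a log2 fold change of -0.39 (edgeR adjusted p = 0.0112). The prolyl hydroxylases that mark HIF for degradation, Egln1 and Egln2, had values of -0.36 (edgeR adjusted p = 0.0223) and -0.29 (edgeR adjusted p = 0.0330). The calls of Txnip, Prkaa1, Egln1 and Egln2 were lost with the covariate. Without control 1 or without control 2, the median log2 fold change of the regulators was -0.14 and -0.11. Without cKO 4, edgeR called 9 of the 22 lower and 0 higher. Among the 12603 genes tested in that fit, 1940 were called lower and 1940 higher.

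Routes that branch from the pathway are given beside the 11.4% of all genes called either way. Of 12 tested genes of pyruvate import and dehydrogenation, 1 fell, Pdp2, the phosphatase that activates pyruvate dehydrogenase (log2 fold change -0.53, edgeR adjusted p = 0.0388). Of 8 pentose phosphate genes, 1 fell, Tkt, which encodes transketolase (log2 fold change -0.32, edgeR adjusted p = 0.0379). Of 13 tested HIF targets outside glycolysis, the collagen prolyl hydroxylase subunit P4ha1 fell (log2 fold change -0.39, edgeR adjusted p = 0.0112) and P4ha2 rose (1.22, edgeR adjusted p = 0.0354). Of 18 tricarboxylic acid cycle genes, edgeR called 0, with 4 lower at an unadjusted p under 0.05, 0 with DESeq2 and 4 lower with voom. Median log2 fold changes of these 4 lists were -0.13, -0.08, 0.0027 and -0.11. Of the 4 genes called in them, P4ha1 alone was still called with the covariate.

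**Figure D5:**
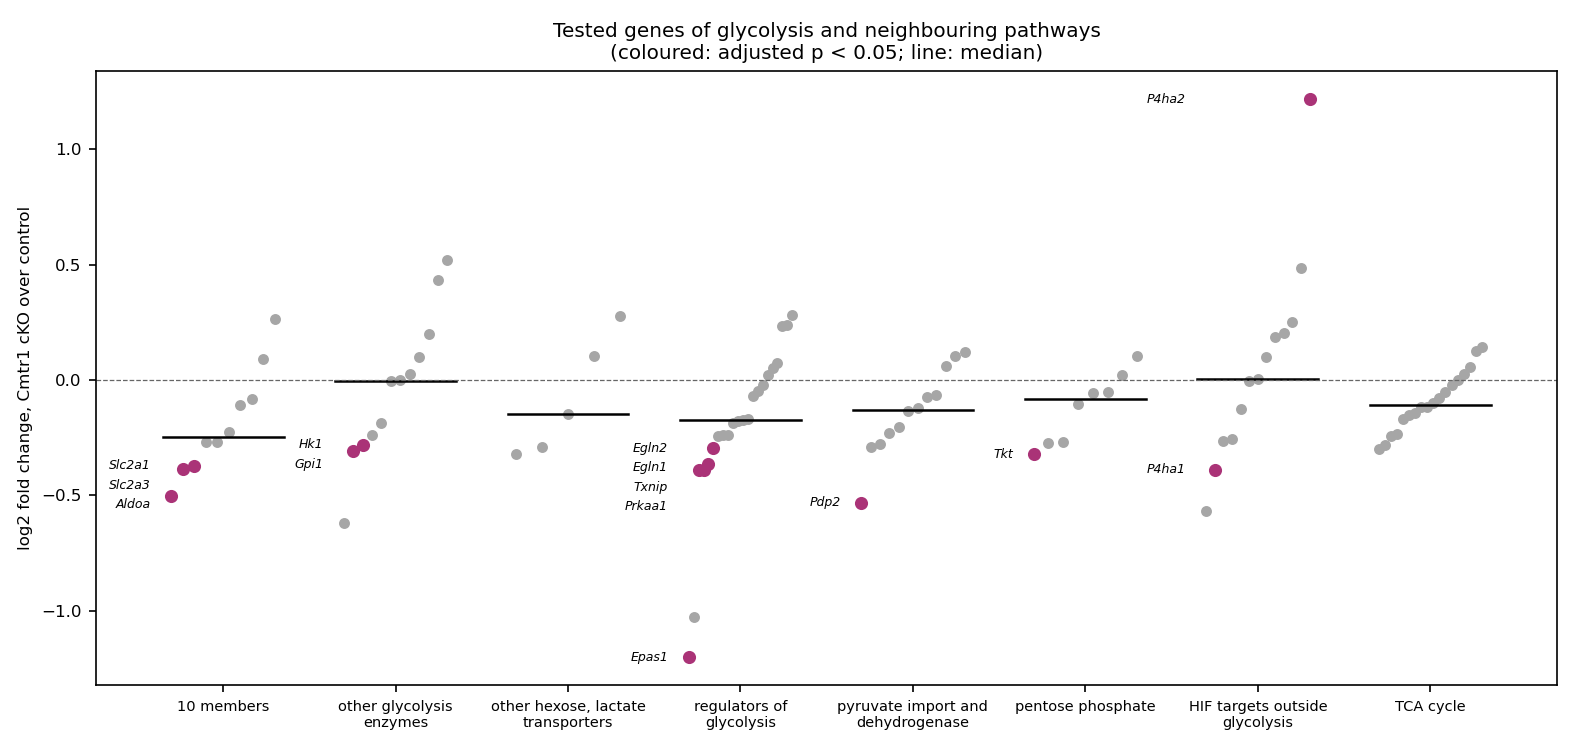
Log2 fold change, cKO over control (y axis), of every tested gene of glycolysis and of each list (x axis), with the list median as a line and the genes past the test coloured and named. The 10 genes have a median of -0.25, and the medians of the other lists run from -0.17 to 0.0027.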

How the data were processed

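The deposited values are whole-number read counts per gene in the layout of STAR's gene table, per the file headers and the submitters' processing notes, which name STAR 2.5.2b, edgeR, mm10 and GRCm38. Which gene models were counted is not given in these sources. The 4 rows that name no gene held 52.1% to 62.0% of reads and were kept out. The strand column with more reads was used. Of 46983 identifiers, 46488 matched GENCODE vM21.

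Counts were tested with edgeR 4.0.16 (filterByExpr, TMM, robust quasi-likelihood test, Benjamini-Hochberg over 12748 genes, threshold 0.05) on 2 controls and 4 cKO libraries. DESeq2 1.42.0 and limma 3.58.1 (voom with sample quality weights) were alternatives, as were other scalings, filters, count columns, a covariate and leaving out each library. On simulated counts, the test called 37.3% of genes changed by a log2 of 0.5, 89.2% at 1 and 100% at 2. Smaller changes were not simulated, so a gene that was not called may still have changed. Intervals are 95%. Levels are CPM with TMM factors. Shared stretches were counted between vM21 transcripts, not over a genome.

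All 10 genes are named, and from other lists each gene called (up to 6 by adjusted p) or an isoenzyme of the same step. The members and lists were chosen with earlier results of these data known.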

Additional observations from a re-analysis of the deposited data

Results flagged for a closer look

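Gm33707, a processed pseudogene of Eno1 that is not among the 10 genes or the lists, gave a signal in all 4 cKO libraries with a lowest count of 227, while both controls had 0 reads. That is above the limit of 3 counts that a count of 0 allows.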

How the results depend on the processing

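With the replicate number as a block, edgeR called 7 of the 10 genes lower, with a median of -0.28 for the 8 enzymes and -0.31 for the 2 transporters, and log2 fold changes of -0.25 for Gapdh, -0.39 for Pgk1, -0.17 for Eno1 and -0.31 for Pkm now called, and Ldha reversed at -0.092. That fit compares controls 1 and 2 with cKO 1 and 2 only, because the numbers 3 and 4 occur in 1 group. List calls in this section count higher and lower together. Under the block the other glycolytic enzymes had 5 calls (2 higher), the other transporters 2, the regulators 10 and pyruvate dehydrogenase 3. Pentose phosphate had 3, HIF targets 4 (2 higher) and the tricarboxylic acid cycle 9, and all genes 4842 beside 1457. Deviations of same-numbered libraries from their group means correlated at 0.13 and -0.13. Pairs would make both positive, so these correlations give no sign of them. The deviations of the 2 controls are equal and opposite, so both correlations rest on a single contrast and cannot exclude pairs. The labels do not say whether the numbers mark pairs.

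With voom, 5 of the 10 genes were lower (Pgk1 -0.30 and Pkm -0.26 now called), and the lists in the same order had 5, 1, 7, 2, 3, 6 and 4 calls (3170 over all genes). Of these list calls, 2 in the other glycolytic enzymes and 3 in HIF targets were higher, and the rest lower. With the share outside exons as covariate, 2 of the 10 genes rose (Ldha 0.45, Tpi1 0.62), and Gapdh (0.16) and Eno1 (0.14) reversed. The lists had 0, 0, 1, 1, 0, 3 and 1 calls in that fit (666 over all genes). Of these list calls, 1 in pyruvate dehydrogenase, 2 in HIF targets and 1 in the tricarboxylic acid cycle were higher, and the rest lower. Eno1 also reversed when summed with its pseudogenes (0.039). DESeq2 gave Slc2a1 -0.37, no longer called, and 1 call among HIF targets. RLE scaling, TMM without ribosomal protein genes and unstranded counts each left 1 call among the other glycolytic enzymes, and unstranded counts left 0 in pentose phosphate. Without a filter the other transporters had 1 call, pyruvate dehydrogenase 2, pentose phosphate 2 and the tricarboxylic acid cycle 1 (2272 over all genes).

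Leaving out 1 library gave 0 to 5 genes lower: 0 without either control, 1 (Aldoa) without cKO 3, 2 without cKO 1 or cKO 2 and 5 without cKO 4. Log2 fold changes ran from -0.57 to -0.47 for Aldoa, -0.41 to -0.31 for Slc2a1, -0.43 to -0.32 for Slc2a3, -0.35 to -0.15 for Pgk1, -0.28 to -0.18 for Pkm, -0.34 to -0.19 for Pgam1, -0.15 to -0.02 for Eno1, -0.18 to -0.06 for Gapdh, 0.16 to 0.40 for Tpi1, and -0.014 to 0.15 for Ldha, which reversed without cKO 4. List calls ran from 0 to 5 for the other glycolytic enzymes, 0 to 1 for the other transporters, 1 to 9 for the regulators, 0 to 2 for pyruvate dehydrogenase, 0 to 3 for pentose phosphate, 0 to 6 for HIF targets and 0 to 6 for the tricarboxylic acid cycle. All genes gave 193 calls without control 2, 255 without control 1, 606 to 744 without cKO 1, 2 or 3 and 3880 without cKO 4. The causes were not tested. With 2 controls, a fit without 1 of them assumes that the other varies like the cKO libraries.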
